A study of Mus musculus with 12 samples.

Results

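The genes of hepatic de novo lipogenesis were followed through the livers of 12 mice, with the number of reads counted per gene as the measure. The 10 members were chosen by their symbols, Acly, Acaca, Acacb, Fasn, Elovl6, Scd1, Me1, Srebf1, Thrsp and Mlxipl. All were found among the 23420 gene rows of the count tables, and all 10 passed the filter on low counts in every comparison. De novo lipogenesis is the making of fatty acids from surplus carbohydrate. Citrate from the mitochondrion is split by ATP citrate lyase (Acly) into acetyl-CoA, acetyl-CoA carboxylases (Acaca, Acacb) turn this into malonyl-CoA, fatty acid synthase (Fasn) builds palmitate with NADPH that malic enzyme (Me1) helps to supply, and Elovl6 and Scd1 lengthen and desaturate the product. In liver the genes are driven after a meal by SREBP-1c, a product of Srebf1 that responds to insulin, and by ChREBP, the product of Mlxipl that responds to sugar. Thrsp encodes Spot 14, a small protein that is switched on together with the synthetic enzymes by thyroid hormone and carbohydrate.

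The study asked whether loss of the ubiquitin ligase SIAH2 changes gene expression in the liver, and whether it does so alike in both sexes. There were 4 groups of 3 mice, wild type females, Siah2 KO females, wild type males and Siah2 KO males, all with a C57BL/6 strain background, about 20 weeks of age, kept on normal chow as the study's general housing, and killed at ZT10, 10 h after lights on. The Siah2-/- mice lack the gene in the whole body, and the wild type and knockout mice came from related lines set up after an intercross of heterozygotes. The study describes individual livers, whereas the sample labels speak of RNA pooled from 3 mice. If the second is right, the spread between libraries is not that between single animals. In whole liver, fewer cells of a type and less RNA per cell cannot be told apart.

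Libraries held 1293688 to 4056144 counts (median 2670267.5), of which 5.68% to 17.9% fell on the ribosomal RNA precursor Rn45s. A tag near the 3′ end of each transcript was counted. Levels are given as CPM, counts scaled by the library total with TMM correction, and they were compared between mice and not between genes. The least counted members were Acacb, with 22 to 109 reads per liver, and Srebf1, with 29 to 186, while Scd1 had 2035 to 8998. Wild type female 1091 stood apart from the other libraries: its weight in a fit that scores library quality was 0.154, against 0.927 to 1.54 in the other 11, so results that rest on it are given with and without it. Siah2 itself was at 16.8, 12.2 and 12.1 CPM in the wild type females, 10.1, 12.4 and 9.48 CPM in the knockout females, 16.7, 27.0 and 21.1 CPM in the wild type males and 9.31, 17.0 and 14.9 CPM in Siah2 KO males. The genotypes overlapped in both sexes, and the place of the counted tag relative to the deleted part was not stated, which leaves the genotype labels unchecked by these reads. The hepatocyte markers Alb, Ttr, Apoa1, Tat, Cps1, Cyp2e1, Pck1 and Serpina1c were detected in every group, and their sum was 35062 to 52754 CPM. Fat cells also run lipogenesis. Of the adipocyte markers, Plin1 and Retn were at 0 in all 12 livers and Adipoq in 3 of the 4 groups, while Cfd was highest in the Siah2 KO males (3.40 to 25.7 CPM) and Fabp4, which other cells also express, was at 46.9 to 118 CPM in all mice. Bile duct markers summed to 6.41 to 25.0 CPM and pancreatic acinar markers to at most 1.18 CPM.

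The genes lie on 6 chromosomes of the build GRCm38.p6 as annotated by RefSeq. Acly (chr11:100476352-100528000), Acaca (chr11:84129635-84401651), Fasn (chr11:120805958-120825166) and Srebf1 (chr11:60199084-60224186) share chromosome 11, and Acacb (chr5:114146321-114250761) and Mlxipl (chr5:135089890-135139768) share chromosome 5. Elovl6 is at chr3:129532386-129638495, Scd1 at chr19:44394450-44407709, Me1 at chr9:86581363-86695914 and Thrsp at chr7:97412933-97417550. Acaca overlaps Tada2a and Gm11437, which held 239 and 48 counts over all mice, Srebf1 overlaps Rai1 with 38, and Me1 overlaps A330041J22Rik with 2. The use of strand in the counting was not stated, so reads in these overlaps could belong to either gene. RefSeq promoter windows, the 250 bases before a transcription start, were at hand for 9 of the members. They are shown for 5 members on which the results below turn and whose window ends at the outermost start of the gene: Acly, Thrsp and Elovl6, which are among the pairs with the highest correlations across mice although no pair passed its test, and Mlxipl and Me1, which differed between knockout females and males. Each reads 5′ to 3′ on the strand of the gene. Capitals mark matches, on either strand, to the E-box CACGTG, which ChREBP with its partner MLX and other helix-loop-helix factors bind, to the inverted CCAAT box ATTGG of the factor NF-Y, and to the GC box GGGCGG of the Sp family. The matches do not overlap, but a pair of GC boxes in Me1 adjoin.
Acly (chr11:100528001-100528250, - strand): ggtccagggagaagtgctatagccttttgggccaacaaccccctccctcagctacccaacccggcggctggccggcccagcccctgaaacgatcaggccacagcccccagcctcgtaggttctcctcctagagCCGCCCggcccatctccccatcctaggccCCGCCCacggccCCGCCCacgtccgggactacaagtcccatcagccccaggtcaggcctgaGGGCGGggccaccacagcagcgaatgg
Thrsp (chr7:97417551-97417800, - strand): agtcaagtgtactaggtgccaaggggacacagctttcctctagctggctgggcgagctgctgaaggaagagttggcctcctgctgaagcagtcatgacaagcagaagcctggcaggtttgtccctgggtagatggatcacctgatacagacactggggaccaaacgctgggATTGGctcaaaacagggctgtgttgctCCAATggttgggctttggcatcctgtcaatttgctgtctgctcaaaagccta
Elovl6 (chr3:129532136-129532385, + strand): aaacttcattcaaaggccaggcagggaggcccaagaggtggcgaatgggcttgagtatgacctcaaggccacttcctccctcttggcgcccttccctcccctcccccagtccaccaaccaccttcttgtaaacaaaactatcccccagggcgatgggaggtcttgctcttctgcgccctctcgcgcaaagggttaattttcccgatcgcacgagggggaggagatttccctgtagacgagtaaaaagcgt
Mlxipl (chr5:135089640-135089889, + strand): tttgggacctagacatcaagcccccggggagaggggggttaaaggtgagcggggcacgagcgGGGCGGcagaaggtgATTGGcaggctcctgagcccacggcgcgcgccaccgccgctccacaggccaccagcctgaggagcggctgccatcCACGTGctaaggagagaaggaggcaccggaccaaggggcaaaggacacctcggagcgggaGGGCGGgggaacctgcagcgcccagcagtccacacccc
Me1 (chr9:86695915-86696164, - strand): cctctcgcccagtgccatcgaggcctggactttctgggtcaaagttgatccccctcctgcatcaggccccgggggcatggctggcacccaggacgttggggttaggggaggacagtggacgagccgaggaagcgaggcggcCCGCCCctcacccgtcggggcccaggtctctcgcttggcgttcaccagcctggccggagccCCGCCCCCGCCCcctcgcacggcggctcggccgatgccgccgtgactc

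The E-box was found in 1 window of the members, that of Mlxipl, 98 bases before the start, and in 6.02% of all 32851 RefSeq windows of that length. A sterol response element, searched as TCACNCCAC, was found before a second, internal start of Mlxipl and in 1.05% of all windows. Some members have several starts, which makes 13 windows for the 9. The inverted CCAAT box was present in 7 of these 13 windows (Acacb, Fasn, Me1, Srebf1, Thrsp and Mlxipl) and in 33.8% of all windows, and the GC box in 5 of 13 (Acly, Me1, Srebf1 and Mlxipl) and in 32.7%. In Thrsp the CCAAT boxes began 79 and 52 bases before the start, and Elovl6 held none of the 4 motifs. A match is a description of the letters only.

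**Figure D1:**
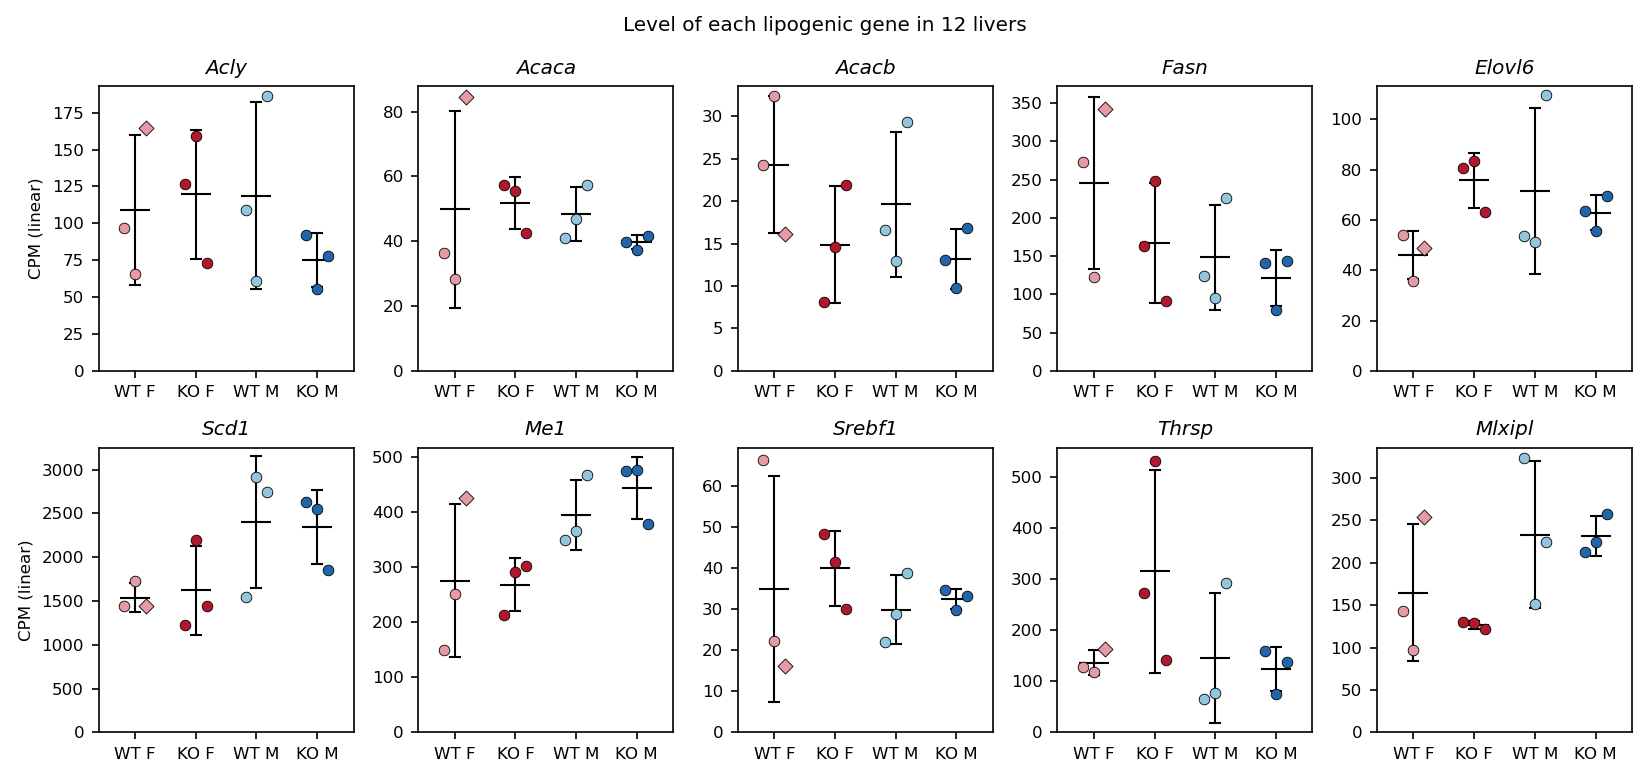
Level of each of the 10 lipogenic genes in each liver, in CPM on linear axes that start at 0, for wild type (WT) and Siah2 KO (KO) females (F) and males (M). Points are single mice, the diamond is wild type female 1091, and bars give the mean ± SD of 3 mice. Elovl6 in females is the member whose genotypes did not overlap, and Me1 and Mlxipl were lower in each KO female than in each KO male.

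Of the first enzymes of the pathway, Acly and Acacb overlapped between all 4 groups. Acaca was higher in each Siah2 KO female than in each Siah2 KO male. Acly was at 96.9, 65.6 and 165 CPM in wild type females 1089, 1090 and 1091 and at 127, 159 and 72.9 CPM in Siah2 KO females 1070, 1104 and 1105. It was at 109, 60.9 and 187 CPM in wild type males 1055, 1086 and 1087 and at 92.3, 55.7 and 77.7 CPM in Siah2 KO males 1075, 1076 and 1081, and mice are listed in this order throughout. In each group the highest Acly level was above the lowest level of every other group, with a coefficient of variation of 24.5% to 53.3%. Acaca, the cytosolic carboxylase that supplies fatty acid synthesis, was at 36.5, 28.5 and 84.7 CPM in the wild type females, against 57.3, 55.5 and 42.6 CPM in Siah2 KO females. In males it was at 40.9, 46.9 and 57.4 CPM in the wild type and at 39.8, 37.4 and 41.8 CPM in the knockout. Female 1091 alone was above the other 11 livers. Acacb, whose malonyl-CoA at the mitochondrion restrains fatty acid import, was at 24.3, 32.3 and 16.2 CPM in the wild type females, against 8.15, 14.6 and 21.9 CPM in Siah2 KO females. Wild type males had 16.7, 13.0 and 29.3 CPM and Siah2 KO males 13.0, 9.78 and 16.9 CPM. Its mean was lower in the knockout in both sexes, with overlap in both.

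Of the enzymes that build and modify the chain, Fasn was at 273, 122 and 342 CPM in the wild type females, against 163, 248 and 91.2 CPM in Siah2 KO females. In males it was at 123, 95.9 and 225 CPM in the wild type and at 141, 79.5 and 144 CPM in the knockout. All groups overlapped. Elovl6, which lengthens palmitate to stearate, was at 54.0, 35.6 and 48.9 CPM in the wild type females, against 80.7, 83.6 and 63.4 CPM in Siah2 KO females, so that the 3 knockout females were above the 3 wild type females. Wild type males had 53.7, 51.4 and 110 CPM and Siah2 KO males 63.7, 55.7 and 69.6 CPM, and male 1087 held the highest level of all mice. Scd1, the desaturase that makes oleate and palmitoleate, was at 1441, 1730 and 1439 CPM in the wild type females, against 1224, 2194 and 1446 CPM in Siah2 KO females. It was at 1540, 2913 and 2747 CPM in wild type males and at 2624, 2552 and 1854 CPM in Siah2 KO males. The means were near each other within a sex, 1537 ± 167 and 1621 ± 508 CPM (SD, n = 3) in females and 2400 ± 749 and 2343 ± 426 CPM in males.

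Me1, which yields cytosolic NADPH, was at 150, 251 and 424 CPM in the wild type females, against 212, 291 and 301 CPM in Siah2 KO females. It was at 350, 365 and 466 CPM in wild type males and at 474, 476 and 378 CPM in Siah2 KO males. Every male exceeded every female other than 1091. Srebf1, whose row also counts the SREBP-1a transcript of the same gene, was at 66.5, 22.3 and 16.2 CPM in the wild type females, against 48.4, 41.6 and 30.2 CPM in Siah2 KO females. In males it was at 21.9, 29.0 and 38.8 CPM in the wild type and at 34.6, 29.8 and 33.2 CPM in the knockout. Wild type females thus held both the highest and the lowest Srebf1 level of the 12 mice. Mlxipl was at 143, 97.3 and 254 CPM in the wild type females, against 130, 129 and 121 CPM in Siah2 KO females. It was at 324, 151 and 225 CPM in wild type males and at 212, 225 and 257 CPM in Siah2 KO males. Its coefficient of variation was 3.78% in knockout females and 48.7% in wild type females. Thrsp was at 128, 118 and 164 CPM in the wild type females, against 273, 531 and 141 CPM in Siah2 KO females. Wild type males had 65.1, 77.9 and 291 CPM and Siah2 KO males 159, 75.2 and 137 CPM. Its spread was wide, from 65.1 to 531 CPM over all mice, and female 1104 and male 1087 stood highest.

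In females, loss of SIAH2 went with higher mean levels of Elovl6 (1.66-fold) and Thrsp (2.34-fold), but no member passed the test across all genes. The quasi-likelihood test of edgeR gave 0 of 10 members an adjusted p (Benjamini-Hochberg, over all genes) under 0.05, and it called 0% of the 9465 genes tested. DESeq2 also called 0 members, but it called 3.7% of the 8185 genes to which it gave an adjusted p. An unadjusted p under 0.05 was reached by 2 of 10 members, both higher in the knockout, beside 15.6% of all genes tested, or 7.3% for higher levels alone. For Elovl6 the log2 fold change was 0.74 (SE 0.24, adjusted p = 0.197 by edgeR), and its groups did not overlap, as was the case for 23.4% of all genes. For Thrsp it was 1.23 (SE 0.41), with an edgeR adjusted p of 0.198 and a DESeq2 adjusted p of 0.0671. Acacb (log2 fold change -0.74, SE 0.41), Fasn (-0.53, SE 0.42) and Mlxipl (-0.35, SE 0.31) had lower means in the knockout, with adjusted p of 0.420, 0.597 and 0.646 by edgeR. The other 5, Acly, Acaca, Scd1, Me1 and Srebf1, differed by less than their standard error, and their 95% intervals reached from -0.86 to 1.27. The median log2 fold change of the members was 0.093, and that of all genes was -0.035.

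Library 1091 weighed on several of these values. Without it, edgeR called 0 of 10 members but 9.64% of 9709 genes, Acacb moved from -0.74 to -1.01 (adjusted p = 0.0918) and Fasn from -0.53 to -0.23 (adjusted p = 0.746), while Mlxipl changed sign to 0.075 (adjusted p = 0.851). The small change of Acaca also rested on 1091, at 84.7 CPM. Wild type females 1089 and 1090 had 36.5 and 28.5 CPM, below the 57.3, 55.5 and 42.6 CPM of the Siah2 KO females. With libraries weighted for quality, limma-voom called 3 members, Acacb (-1.14, adjusted p = 0.0411), Elovl6 (0.76, adjusted p = 0.0376) and Thrsp (1.26, adjusted p = 0.0436), together with 11.2% of all genes. Female 1104 weighed on Thrsp, whose log2 fold change without it was 0.62 (adjusted p = 0.576). Of the marker lists, the endothelial and stellate cell genes summed to 386 to 440 CPM in the wild type females, against 271 to 311 CPM in Siah2 KO females, with 5 of 5 tested lower and 0 called. Kupffer and immune cell genes summed to 379 to 516 and 296 to 736 CPM, with 5 of 6 tested lower in the knockout, 2 of them at an unadjusted p under 0.05, and 0 called. The 1 adipocyte marker tested, Fabp4, was at 50.3 to 53.7 CPM in wild type and 56.9 to 110 CPM in knockout females (log2 fold change 0.72, adjusted p = 0.224 by edgeR), without overlap, and the other 5 were too low to test. Of the 8 hepatocyte markers 3 were higher and 1 lower without overlap, with 0 called by edgeR and 2 by DESeq2, Cyp2e1 (3578 ± 294 and 7095 ± 571 CPM, SD, n = 3, DESeq2 adjusted p = 0.000757) and Pck1 (1.59, DESeq2 adjusted p = 0.0179). The part of these markers in the lipogenic values was not tested.

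In males, 8 of the 10 members had a lower fitted level in the knockout and none passed the test. Of all genes, 48.1% had a log2 fold change above 0. No member had groups that did not overlap, against 8.93% of all genes. The count called by edgeR was 0 of 10, with 0% of 8823 genes called, and DESeq2 called 0 members and 0.037% of its genes. Acly alone had an unadjusted p under 0.05, as did 4.05% of all genes tested, with a log2 fold change of -0.68 (SE 0.31, adjusted p = 0.9999 by edgeR). Its value without male 1087, the wild type mouse with the highest Acly, was -0.15 (adjusted p = 0.998). Acacb (-0.60, SE 0.32), Acaca (-0.31, SE 0.19) and Fasn (-0.30, SE 0.28) also had lower means (adjusted p = 0.9999 for all of them in edgeR), and the value of Fasn turned to 0.16 without male 1087. Elovl6, Scd1, Me1, Srebf1, Thrsp and Mlxipl differed by about their standard error or less, with log2 fold changes of -0.26 to 0.16 and 95% intervals from -1.19 to 0.66. The median over the members was -0.24, and that over all genes was -0.011.

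With both sexes combined, 6 Siah2 KO mice were set against 6 wild type mice, which are the same animals as above. No member was called by edgeR (0 of 10, with 0.0111% of 9020 genes called) or by DESeq2 (0.0056% of its genes). Acacb had an unadjusted p under 0.05, as did 5.65% of all genes, with a log2 fold change of -0.67 (SE 0.28, adjusted p = 0.866 by edgeR). Acacb and Fasn (-0.45, SE 0.32, adjusted p = 0.882 by edgeR) were the members whose mean was lower in the knockout by more than its standard error in each sex. Thrsp (0.64, SE 0.42) and Elovl6 (0.24, SE 0.23) had adjusted p of 0.869 and 0.910 by edgeR. The remaining 6 members lay between -0.22 and 0.16, with 95% intervals from -0.85 to 0.77.

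Whether the change with genotype differed between the sexes was tested directly over all 12 mice, as the log2 change in females minus that in males. Again 0 of 10 members passed, with 0.255% of 9806 genes called by edgeR, and DESeq2 called 0 members and 3.89% of its genes. Without 1091, edgeR called 0 members and 5.15% of all genes. Elovl6, at 0.95 (SE 0.39, adjusted p = 0.269 by edgeR), had an unadjusted p under 0.05, as did 14.1% of all genes. Thrsp was at 1.48 (SE 0.71, adjusted p = 0.366) and Acly at 0.85 (SE 0.54, adjusted p = 0.534), both by edgeR. For these 3 genes the change was positive in females and negative in males, within the errors given. Wild type male 1087 held the highest level of its group in each of them, which lowers the change in males. With 1 mouse left out at a time, the difference went as low as 0.45 for Elovl6, 0.41 for Thrsp and 0.30 for Acly. The 95% intervals of the other 7 reached from -1.42 to 1.35, so that sizeable differences between the sexes in these genes were not excluded.

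**Figure D2:**
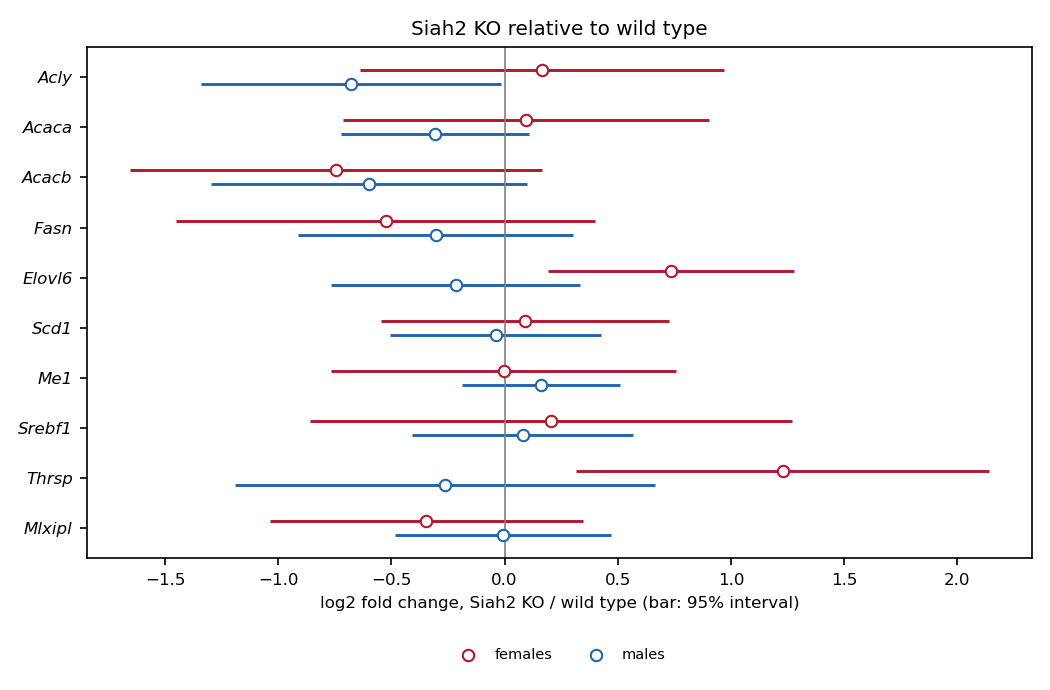
Log2 fold change of Siah2 KO over wild type (horizontal axis) for the 10 genes in females and in males. Circles are the edgeR estimates from 3 against 3 mice and bars their 95% intervals, and open circles mark an adjusted p of 0.05 or more, which holds for all 20 values. The intervals of Elovl6 and Thrsp in females and of Acly in males lie to 1 side of 0.

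The sexes were then compared within each genotype. Among wild type mice 0 of 10 members were called by edgeR, while 1.39% of 9335 genes were, and DESeq2 called 0 members and 3.74% of its genes. At an unadjusted p under 0.05 there were also 0 members, beside 15.2% of all genes, and 0 whose groups did not overlap, beside 22.7%. Scd1 (-0.64, SE 0.30, adjusted p = 0.345), Elovl6 (-0.65, SE 0.33, adjusted p = 0.399), Me1 (-0.52, SE 0.35, adjusted p = 0.521) and Mlxipl (-0.50, SE 0.38, adjusted p = 0.578) had lower means in females by edgeR, and Fasn (0.72, SE 0.41, adjusted p = 0.449) a higher mean. Acly, Acaca, Acacb, Srebf1 and Thrsp lay between -0.13 and 0.28, with 95% intervals from -1.20 to 1.29. Female 1091 held the highest Me1 and Mlxipl of its group. Without it, Me1 was lower in wild type females by edgeR (log2 fold change -0.97, adjusted p = 0.0359), with 1 of 10 members and 7.73% of all genes called, and Mlxipl was at -0.94 (adjusted p = 0.0810).

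Among Siah2 KO mice, Mlxipl and Me1 were lower in females than in males and Thrsp was higher. These were 3 of 10 members called by edgeR, against 11.5% of the 9102 genes tested (5.69% higher and 5.78% lower in females). For Mlxipl the log2 fold change of females over males was -0.87 (SE 0.15), with an edgeR adjusted p of 0.00142 and a DESeq2 adjusted p of 4.62e-06, and the level in females was 0.547 times that in males. For Me1 it was -0.73 (SE 0.17), or 0.603 times, with an edgeR adjusted p of 0.0149 and a DESeq2 adjusted p of 0.000976. In both genes the 3 females were below the 3 males. Thrsp was 2.54-fold higher in females (log2 fold change 1.35, SE 0.36, adjusted p = 0.0249 by edgeR), but its groups overlapped and DESeq2, which called 2 of 10 members and 8.4% of its genes, did not call it (adjusted p = 0.179). Acly (0.67, SE 0.24, adjusted p = 0.0897), Acaca (0.39, SE 0.18, adjusted p = 0.188) and Scd1 (-0.54, SE 0.22, adjusted p = 0.125) had an unadjusted p under 0.05, which makes 6 of 10 members beside 26.1% of all genes. The 3 knockout females were also above the 3 knockout males for Acaca, so 3 members had groups that did not overlap, against 30.4% of all genes. Fasn (0.46, SE 0.28), Elovl6 (0.27, SE 0.17) and Srebf1 (0.31, SE 0.20) had adjusted p of 0.332, 0.358 and 0.361 by edgeR, and Acacb was at 0.079 with a 95% interval from -0.67 to 0.82.

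Acly was called without female 1105 (0.91, adjusted p = 0.0121) and Scd1 without female 1104 (-0.81, adjusted p = 0.0374), both by edgeR. Of the 3 calls, that of Mlxipl was made without any 1 of the 6 mice (adjusted p = 0.00395 to 0.0157 by edgeR). Me1 was lost without female 1070 (-0.58, adjusted p = 0.0744), male 1075 (-0.68, adjusted p = 0.0538) or male 1076 (-0.67, adjusted p = 0.0536). Thrsp was lost without female 1070 (1.45, adjusted p = 0.0501), female 1104 (0.74, adjusted p = 0.161), male 1076 (1.10, adjusted p = 0.0964) or male 1081 (1.42, adjusted p = 0.0852). Fitted with all 12 mice, which share 1 estimate of the spread, the values were -0.88, -0.73 and 1.34 for Mlxipl, Me1 and Thrsp, none passed (adjusted p = 0.122, 0.178 and 0.167), and 3.59% of all genes were called. None of the 3 passed the test of the difference between the sexes above, which is also the test of whether the sex difference depends on genotype, so a sex difference particular to the knockout was not shown. Markers of other cells differed between the sexes as well. Kupffer and immune cell genes summed to 296 to 736 CPM in Siah2 KO females and 90.1 to 186 CPM in Siah2 KO males, with 4 of 6 tested called higher in females. In wild type mice the sums were 379 to 516 and 69.9 to 531 CPM with 2 of 6 called higher. Cd3e and Cd79a were too low to test, with 0 reads in the males and at most 1 and 2 reads in a Siah2 KO female. Alas2, the tested red cell marker, was at 8.39 to 19.0 CPM in Siah2 KO females and 101 to 153 CPM in Siah2 KO males. It was also lower in wild type females, 20.7 to 24.9 against 83.4 to 104 CPM in wild type males (log2 fold change -2.02, adjusted p = 0.00195 by edgeR). Hba-a1, Hbb-b1 and Hbb-b2 were listed at 0. The part of these cell markers in the lipogenic values was not tested.

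**Figure D3:**
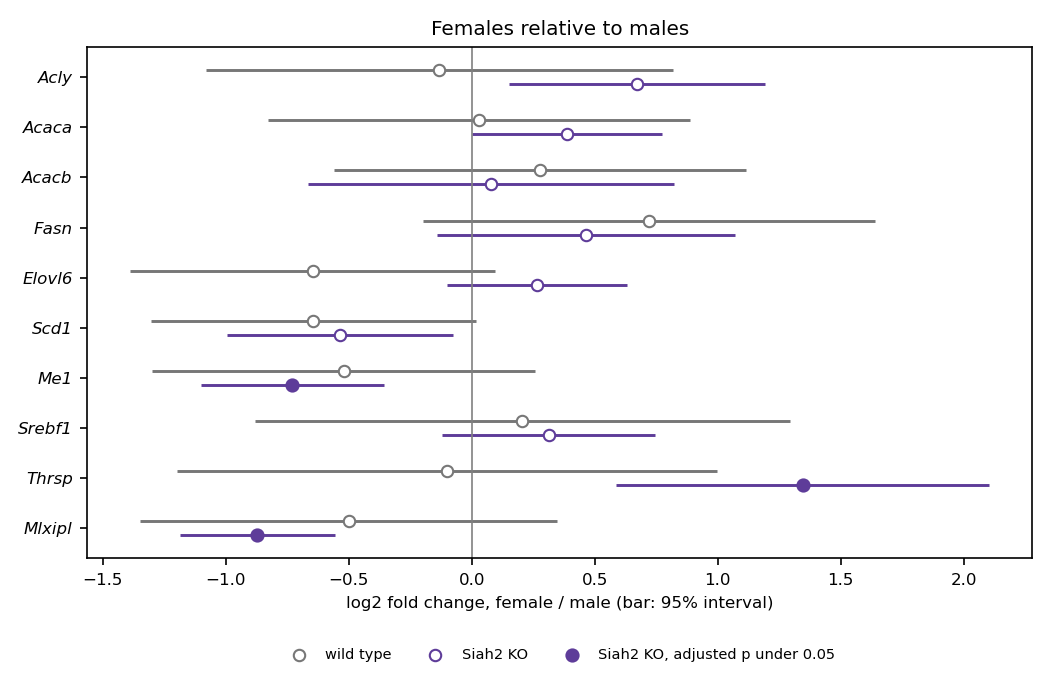
Log2 fold change of females over males (horizontal axis) for the 10 genes among wild type mice and among Siah2 KO mice. Circles are edgeR estimates from 3 against 3 mice, bars their 95% intervals, and filled circles an adjusted p under 0.05. Me1, Thrsp and Mlxipl are filled in the knockout and no gene is in the wild type, where the bars are longer.

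Genes around the pathway were read from 4 lists with 38 genes in all, for the supply of citrate, acetyl-CoA and sugar, the supply of NADPH, the regulators of SREBP-1c, ChREBP and acetyl-CoA carboxylase, and the use of new fatty acids. In females 0 of the 35 tested were called between genotypes by edgeR. At an unadjusted p under 0.05 there were 3, beside 15.6% of all genes tested, and all 3 were higher in the knockout. They were Pklr, the liver pyruvate kinase and a ChREBP target (0.91, adjusted p = 0.209), Mlx, the binding partner of ChREBP (0.67, adjusted p = 0.264), and Mdh1, cytosolic malate dehydrogenase, which makes the malate that malic enzyme uses (0.54, adjusted p = 0.289). In males 0 of 36 were called and 3 had an unadjusted p under 0.05, beside 4.05% of all genes. Among the 3 were the fructose kinase Khk (-0.36) and the acetyl-CoA synthetase Acss2 (-0.79), both with adjusted p = 0.9999 in edgeR. Among Siah2 KO mice 6 of 36 were called between the sexes by edgeR, beside 11.5% of all genes. Mdh1 (0.90, adjusted p = 0.00186) and Khk (0.86, adjusted p = 0.00329) were higher in females, and the lower ones included the kinase subunit gene Prkaa2 (-0.97, adjusted p = 0.00663), Insig2, which retains SREBP precursors in the endoplasmic reticulum (-0.80, adjusted p = 0.0285), and Taldo1 of the pentose phosphate pathway (-0.59, adjusted p = 0.0427), all by edgeR. In wild type mice 0 of 35 passed in edgeR, beside 1.39% of all genes, and 6 had an unadjusted p under 0.05, beside 15.2%. Among the 6 was Mlx (-1.12, edgeR adjusted p = 0.0763, DESeq2 adjusted p = 0.0410).

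Members were last compared for how they varied from mouse to mouse inside the groups, as deviations of log2 CPM from the group mean. Of 45 pairs, 36 had a positive Pearson correlation, with a median r of 0.25, and 0 pairs had an adjusted p under 0.05 by an exact permutation within groups (two-sided), while 9 had an unadjusted p under 0.05. Of these 9, 8 joined Acly, Acaca, Fasn, Elovl6 and Thrsp to each other. The same counts were not made for pairs of other genes, so it is not known whether they are particular to the members. With 1296 arrangements the smallest possible p was 0.00077, which limits what could pass after adjustment over 45 pairs. Acly and Fasn varied most alike (r = 0.93, exact permutation p = 0.00154, adjusted p = 0.0556; rho = 0.87, p = 0.00772, adjusted p = 0.0694), and r was 0.94 without mice 1086 and 1087, the farthest in Acly. Fasn and Thrsp gave r = 0.83 (exact permutation p = 0.00309, adjusted p = 0.0556; rho = 0.85, p = 0.00386, adjusted p = 0.0694), and 0.88 without 1090 and 1105. Fasn and Elovl6 gave r = 0.83 (exact permutation p = 0.0054, adjusted p = 0.0556; rho = 0.85, p = 0.00386, adjusted p = 0.0694), and 0.81 without the same mice. 

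The same deviations show which livers were at the ends of their groups. Male 1087 was the highest wild type male for 8 members, and its Thrsp deviation was 1.34 on the log2 scale. Female 1105 was the lowest knockout female for 7 members and male 1076 the lowest knockout male for 7. Library 1105 had 14.9% and library 1076 17.9% of its counts on Rn45s, the upper end of the range, whose part in these levels was not tested. Without male 1087, 27 of 45 pairs were positive with a median r of 0.14. Scd1, Srebf1 and Acacb had the lowest median r to the other members, 0.11, 0.11 and 0.023. For Srebf1, rho was highest with Elovl6 and Thrsp, and neither pair passed its test. With Elovl6 r was 0.53 (exact permutation p = 0.130, adjusted p = 0.481, rho = 0.62, p = 0.124, adjusted p = 0.419), and 0.58 without 1087 and 1086. With Thrsp r was 0.31 (exact permutation p = 0.194, adjusted p = 0.547, rho = 0.53, p = 0.112, adjusted p = 0.419), and 0.78 without 1089 and 1091, the farthest in Srebf1. The pair with the lowest r was Me1 and Srebf1 (r = -0.74, exact permutation p = 0.183, adjusted p = 0.547; rho = -0.38, p = 0.377, adjusted p = 0.707), and it rested on females 1089 and 1091, since r was 0.0095 without them. Scd1 and Mlxipl gave r = -0.56 (exact permutation p = 0.0332, adjusted p = 0.166; rho = -0.55, p = 0.0594, adjusted p = 0.267), and -0.53 without 1055 and 1104.

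**Figure D4:**
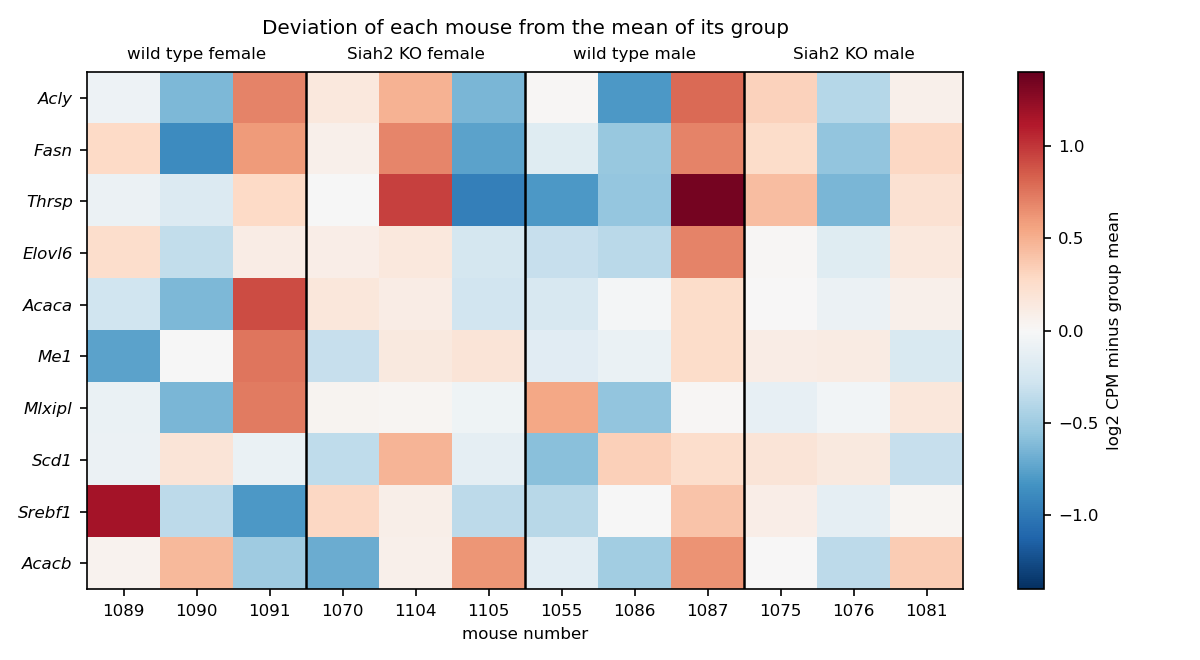
Deviation of each mouse from the mean of its group, in log2 CPM (colour, red above and blue below), with the genes in rows and the 12 mice in columns by group. The upper rows, Acly, Fasn, Thrsp and Elovl6, are red together in male 1087 and blue together in female 1105 and male 1076. Srebf1 has the same signs in these 3 mice, and Acacb is red in female 1105.

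The genes outside the set whose levels over the 12 mice ran closest to the mean standardised level of the members were Ces2g (r = 0.88), Fam47e (0.82), Tlcd2 (0.82), Msrb2 (0.81), Dak (0.81) and 6720401G13Rik (0.80), out of 9738 genes compared. Ces2g, a carboxylesterase, ranged from 75.7 to 146 CPM. The members' own r to that mean ran from 0.84 for Acly to 0.082 for Acacb. Each member is itself part of the mean, which raises its r, and the genes outside the set are not. These r values are descriptions over 12 livers that differ in library depth and in group.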

How the data were processed

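QuantSeq 3′ libraries (Lexogen) were made from the liver RNA of 12 mice, 3 in each group. The authors trimmed and mapped the reads on Illumina's BaseSpace platform with RNA Express and deposited raw read counts per gene symbol in 1 table per sex. The submitters' processing notes name STAR, DESeq and the build mm10. Annotation, versions and use of strand: not given in the sources used here. Columns were matched to mice by the number in their names.

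The whole tables were fitted in R 4.3.3 by the two-sided quasi-likelihood F test of edgeR 4.0.16, after filterByExpr and TMM scaling. P-values were adjusted by Benjamini-Hochberg over all genes tested, with a threshold of 0.05, and standard errors were derived from the F statistic. Alternatives were DESeq2 1.42.0, limma-voom (limma 3.58.1) without and with quality weights, RLE scaling, filters of 1 count in all or of 10 counts in each library, a fit of all 12 mice (with both sexes combined, a sex term), and fits that left out 1 mouse at a time. DESeq2 without wild type female 1091 was added after the data were seen. Fits were tested on simulated data with changes larger than those of the members, so how often changes of the members' size would be called was not tested. Correlations used log2 CPM with a prior count of 3 (0.5 as alternative) and exact permutation within groups, in Python 3.11.15 with numpy 2.4.6, pandas 2.3.3 and scipy 1.17.1, and figures matplotlib 3.10.9. Gene positions and promoters are RefSeq's on GRCm38.p6, matched by symbol.

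The members, gene lists and tests were chosen with earlier results of these data known. All members are named in every comparison, log2 fold changes one by one where they exceed their standard error. Of the 4 pathway lists, genes with an unadjusted p under 0.05 could be named, at most 6 a comparison. Some results for these lists are not reported here. Molecular identifiers are not mentioned in the study's methods, so the counts are taken as reads and not as molecules.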

Additional observations from a re-analysis of the deposited data

How the results depend on the processing

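The counts of members called stayed at 0 of 10 in males and with both sexes combined under every alternative run. The count of correlated pairs also stayed at 0 of 45. With 1 mouse left out fewer arrangements remain, so that a single pair could not pass, and no conclusion is drawn from those runs. In females the count of 0 became 3 with quality weights (Acacb, Elovl6 and Thrsp) and 1 without a filter beyond 1 count (Thrsp, adjusted p = 0.00367), and over all alternatives the adjusted p ranged from 0.0376 to 0.511 for Elovl6 and from 0.00367 to 0.576 for Thrsp. For the difference of the change between the sexes it became 1 without that filter (Thrsp, adjusted p = 0.00427) and 1 by DESeq2 without wild type female 1091 (Acaca). Between wild type females and males it became 1 with quality weights (Me1) and 2 by DESeq2 without 1091 (Me1 and Mlxipl), and 0 to 1 with each mouse left out. Between Siah2 KO females and males the count of 3 was 2 by DESeq2 (Me1 and Mlxipl), 4 without a filter beyond 1 count (also Acly, adjusted p = 0.0116), 0 in the fit of all 12 mice, and 1 to 4 with each mouse left out, 1 of them (Mlxipl) without female 1070 or male 1076. Shares of all genes called moved between settings as well. In females they went from 0% in the main fit to 11.2% with quality weights, so a move in these counts is not a result about the members alone. The fits of 1 mouse fewer have fewer samples, and the cause of the other moves in the counts of members was not tested. Of the 30 log2 fold changes given singly over the 6 comparisons, 28 kept their sign throughout. Those that reversed were Mlxipl in females without 1091 (0.075 by edgeR, 0.089 by DESeq2; -0.61 to 0.075 with each mouse left out) and Fasn in males without 1087 (-0.53 to 0.16 with each mouse left out). Of the 30 that were within their standard error, 25 changed sign under at least 1 alternative. No paired analysis was possible because the mouse numbers are not shared between groups.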
